A study of Mus musculus with 8 samples.

Results

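The ends of the genes for the proteins of the cytosolic ribosome were examined as a reference for scaling and for signal over background in chromatin accessibility profiles of mouse melanoma lines. The rule took 76 autosomal protein-coding genes by symbol (Rpl or Rps with a number, and the stalk genes Rplp0, Rplp1 and Rplp2), leaving aside 3 genes of the same naming on chromosome X. Of these 76 genes, 70 had at least 1 region of the authors' count table within 1 kb of a gene end, which gave 95 of the 148664 regions. The genes comprised 40 of the large subunit, 28 of the small subunit, 3 of the stalk and 5 paralogs whose symbols end in l. Of the 95 regions, 63 overlapped a peak call in all 8 libraries and 3 overlapped none, and all 95 passed the filter on low counts.

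The libraries were made by ATAC-seq, which marks open DNA by the insertions of a transposase loaded with sequencing adapters, from 4 melanoma lines with 2 libraries each. Lines 112 and 113 carry the labelled genotype STAT3 knockout (Stat3∆ in the growth protocol), and lines 119 and 73 are labelled Wild type and come from the Stat3fl pools, a floxed genotype. In the sample titles a p number of unstated meaning is 18 (line 112), 44 (113), 14 (119) or 68 (73). The Cre driver behind the deletion is not given in the sources used here. The lines were grown from lymph node cells of mice that had cutaneous melanoma, and each is 1 pool of cells that the labels also call a clone, so a genotype was represented by 2 lines. Each reaction held 50000 cells, and the 2 libraries of a line are labelled as biological replicates without a statement of separate cultures, so p-values between lines measure the spread between these libraries, which may be technical. The counts summed over the table ranged from 2697546 to 7464336 per library. At the end of Stat3, the targeted gene, CPM was 30.5 and 25.9 in line 112, 38.5 and 37.5 for 113, 18.2 and 18.2 for 119 and 38.9 and 28.1 for 73, so accessibility there did not separate the labels (edgeR adjusted p = 0.856). CPM is the count per 1000000 after scaling of the library size by TMM, a trimmed mean of ratios over all regions. The labelled cell type was looked at through its markers. All 8 melanocyte markers on the list had a region, and their summed CPM was 248 and 203 in line 112, 395 and 344 for 113, 109 and 117 for 119 and 139 and 140 for 73. Line 73 was the lowest line at 5 of the 8 and line 119 at the other 3. In the order 112, 113, 119 and 73 the line means were 22.8, 62.5, 3.79 and 0.534 CPM for Dct, 10.4, 10.3, 0.745 and 0.256 CPM for Mlana, 39.1, 63.6, 32.7 and 74.6 CPM for Pmel, and 24.8, 36.1, 18.8 and 39.1 CPM for Mitf. The 4 fibroblast markers summed to 46.9 to 62.6 CPM in the libraries of lines 112, 113 and 119 and to 166 and 151 CPM in line 73. They did not move together. In the same order of lines the means were 19.8, 23.1, 25.6 and 35.7 CPM for Col1a1 and 3.55, 1.41, 0.596 and 32.2 CPM for Col1a2. They were 5.64, 3.64, 12.9 and 48.2 CPM for Pdgfrb and 13.8, 15.9, 1.83 and 1.22 CPM for Pdgfra, at which line 73 was the lowest. Of 3 markers each of T cells, B cells, other blood cells, endothelium and keratinocytes, 2, 3, 2, 1 and 2 had a region, and Cd3g, Ptprc, Pecam1, Cdh5 and Krt5 had none. The part of these differences in the results below was not tested.

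Ribosomal proteins assemble with ribosomal RNA into the large and small subunits that translate messenger RNA, and the acidic proteins encoded by Rplp0, Rplp1 and Rplp2 form the stalk that recruits translation factors. Their genes are transcribed at a high rate in nearly every growing cell from short promoters without much tissue specificity, and many of their transcripts begin with a tract of pyrimidines through which their translation responds to growth signals. For that reason several of them, such as Rplp0, Rpl13a, Rpl19, Rpl32, Rps18 and Rps27a, are in common use as reference genes.

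The promoters below are those of the start regions with the largest value per kb (Rps21) and the largest CPM (Rps19), of common reference genes (Rplp0, Rpl13a), of the single gene with a match to the STAT motif (Rpl35) and of a pair of paralogs at which the table had no region (Rpl10l, Rpl39l). Each runs from 250 bases before to 30 bases after an annotated start in the RefSeq promoter table of GRCm38.p6, on the sense strand from 5′ to 3′, with matches to the motifs searched in capitals. Where a gene has several annotated starts, the entry with the lowest coordinate is shown.
Rps21: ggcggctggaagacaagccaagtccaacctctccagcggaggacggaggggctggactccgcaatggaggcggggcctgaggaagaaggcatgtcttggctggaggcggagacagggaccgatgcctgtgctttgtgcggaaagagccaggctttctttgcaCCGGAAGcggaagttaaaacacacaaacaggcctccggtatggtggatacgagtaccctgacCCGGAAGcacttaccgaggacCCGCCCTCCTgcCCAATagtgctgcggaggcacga
Rpl13a: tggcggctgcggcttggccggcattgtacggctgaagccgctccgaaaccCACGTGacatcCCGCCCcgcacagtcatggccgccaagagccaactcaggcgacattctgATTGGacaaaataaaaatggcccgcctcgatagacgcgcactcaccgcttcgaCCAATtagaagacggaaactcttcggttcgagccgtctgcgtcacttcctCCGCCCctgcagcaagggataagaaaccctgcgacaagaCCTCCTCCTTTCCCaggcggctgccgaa
Rps19: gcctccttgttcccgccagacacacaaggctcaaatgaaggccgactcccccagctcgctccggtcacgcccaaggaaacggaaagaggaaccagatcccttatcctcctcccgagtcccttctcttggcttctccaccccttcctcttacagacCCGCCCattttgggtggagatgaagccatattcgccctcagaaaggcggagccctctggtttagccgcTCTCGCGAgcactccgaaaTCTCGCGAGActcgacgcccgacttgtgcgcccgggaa
Rplp0: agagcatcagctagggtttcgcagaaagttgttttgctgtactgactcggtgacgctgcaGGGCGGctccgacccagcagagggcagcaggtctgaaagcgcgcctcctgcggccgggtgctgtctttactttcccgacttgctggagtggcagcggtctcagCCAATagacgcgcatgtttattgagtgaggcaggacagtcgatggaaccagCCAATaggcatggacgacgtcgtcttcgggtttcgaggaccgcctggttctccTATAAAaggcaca
Rpl35: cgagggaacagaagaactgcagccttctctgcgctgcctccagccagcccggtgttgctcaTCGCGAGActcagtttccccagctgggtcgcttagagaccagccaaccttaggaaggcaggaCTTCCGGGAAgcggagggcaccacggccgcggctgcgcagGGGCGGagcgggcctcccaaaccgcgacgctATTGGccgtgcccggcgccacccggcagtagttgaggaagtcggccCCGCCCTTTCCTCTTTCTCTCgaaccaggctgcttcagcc
Rpl10l: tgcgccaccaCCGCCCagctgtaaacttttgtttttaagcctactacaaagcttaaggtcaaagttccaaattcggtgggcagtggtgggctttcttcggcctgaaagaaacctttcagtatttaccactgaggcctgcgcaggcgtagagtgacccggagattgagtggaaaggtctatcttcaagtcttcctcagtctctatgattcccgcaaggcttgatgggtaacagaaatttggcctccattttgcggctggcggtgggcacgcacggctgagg
Rpl39l: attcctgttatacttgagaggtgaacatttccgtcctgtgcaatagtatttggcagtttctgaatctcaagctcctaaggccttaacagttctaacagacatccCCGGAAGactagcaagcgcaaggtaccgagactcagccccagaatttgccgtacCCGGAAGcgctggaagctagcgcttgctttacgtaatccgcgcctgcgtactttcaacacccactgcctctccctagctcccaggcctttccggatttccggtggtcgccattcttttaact
The stretches lie at chr2:180257129-180257408 (plus strand) for Rps21, chr7:45128716-45128995 (minus strand) for Rpl13a, chr7:24884342-24884621 (plus strand) for Rps19, chr5:115559217-115559496 (plus strand) for Rplp0, chr2:39005102-39005381 (minus strand) for Rpl35, chr12:66284372-66284651 (minus strand) for Rpl10l and chr16:10169978-10170257 (plus strand) for Rpl39l.

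The motifs were searched on both strands of the table's windows of 300 bases, which held 68 promoters of 56 of the 76 genes and 21263 promoters of all protein-coding genes. The ETS motif CCGGAAG, bound by factors such as GABPA, was present in 35.3% of the ribosomal promoters and in 11.6% of all promoters. The motif TCTCGCGA was present in 16.2% and 1.41%, and the YY1 motif AAGATGGC in 10.3% and 3.05%. The start-site pyrimidine tract, searched on the sense strand only as a C within 5 bases of the annotated start followed by at least 4 pyrimidines, was present in 44.1% and 18.6%. Each of these 4 features was more than 2 times as frequent at ribosomal promoters. The SP1 motif GGGCGG was found in 55.9% and 46.2%, the E-box CACGTG in 11.8% and 7.84% and the NRF1 motif GCATGCGC in 4.41% and 3.52%. The NFY motif CCAAT was less frequent than in all promoters, in 27.9% against 38.2%, as was the TATA box TATAAA, in 7.35% against 12.6%. The STAT motif TTCCNGGAA was present in 1 of the 68 ribosomal promoters, that of Rpl35, where it overlaps an ETS match and begins 126 bases before the start, and in 1.17% of all promoters. In Rps21 the SP1 match runs into the pyrimidine tract, and Rps19 holds 3 matches to TCTCGCGA on the 2 strands within 27 bases of the start, of which a pair overlap. The stretches of the paralogs Rpl10l and Rpl39l lack the tract, as do those of Rps19 and Rplp0. It was found in 28 of the 56 genes and in 2 of the 7 promoters of paralogs. Median GC content was 58.0% at ribosomal promoters and 56.3% at all promoters, and the median number of CG dinucleotides was 21 and 13. Genes with several starts enter more than once with overlapping sequence, and a match describes letters, not binding.

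The accessibility of the 95 regions was high relative to the table. Their median was 20.3 CPM, against 14.6 CPM for the 18353 regions at the ends of any protein-coding gene and 3.54 CPM for all regions. The median lay at the 60.4th percentile of gene ends and at the 92.6th percentile of all regions. The regions had a median width of 811 bp, against 658 bp at gene ends and 575 bp in the whole table, so levels between regions are compared per kb below. Counting error was moderate, since the median count of a region per library ranged from 55 to 121 over the 8 libraries and the lowest count of any region in any library was 4.

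Among the stalk genes, the region at the start of Rplp0 (chr5:115559131-115559711, mm10 coordinates counted from 1) had 21.9 and 18.2 CPM in line 112, 31.7 and 29.0 CPM for 113, 17.4 and 18.2 CPM for 119 and 42.2 and 33.1 CPM for 73. The region of Rplp2 had 27.7 and 18.8, 42.8 and 36.0, 22.2 and 25.8, and 38.4 and 38.9 CPM in the same order of lines, and that of Rplp1 had 12.3 and 12.6, 19.5 and 21.0, 9.18 and 11.5, and 22.8 and 22.8 CPM. At each of the 3 stalk genes, both libraries of lines 113 and 73 were above all libraries of lines 112 and 119. Each genotype thus held a high and a low line, and the genotypes overlapped. Lines 113 and 73 also have the higher p numbers in the titles (44 and 68 against 18 and 14), and with 4 lines that number and the line cannot be told apart. In bulk libraries a smaller share of cells with the region open and a smaller signal per cell cannot be told apart.

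Of the large subunit genes, 39 of 40 had a region, 56 regions in all. The largest CPM of any region was at Rpl7 (chr1:16104884-16106487), with 101 and 81.9 CPM in line 112, 113 and 116 for 113, 74.6 and 75.3 for 119 and 110 and 125 for 73. This region also lies within 1 kb of an end of Rdh10, and the counts of the neighbouring genes cannot be told apart. Per kb it held 62.1 CPM, below Rpl37 at 73.9 and Rpl15 at 65.4 CPM per kb. The start of Rpl13a (chr7:45128595-45129346), a protein of the large subunit also known for its part in silencing inflammatory transcripts, had 39.1 and 30.8 CPM in line 112, 55.0 and 57.8 for 113, 27.5 and 31.7 for 119 and 45.6 and 35.8 for 73. Lines 113 and 73 were again above line 119 at Rpl13a, while line 112 overlapped line 73. Rpl32 had 23.5 and 20.6, 27.9 and 25.2, 12.1 and 14.9, and 27.7 and 26.9 CPM in the 4 lines, with line 119 alone at the bottom. At Rpl22 the only region within the rule lies at the finish and had 3.72 to 9.74 CPM over the 8 libraries (mean 11.6 CPM per kb). An annotated start of Rpl22 lies more than 1 kb inside the outer limits of the gene, and the region there had 15.9 to 31.0 CPM.

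Of the small subunit genes, 27 of 28 had a region, 34 regions in all. Rps19, whose human counterpart is mutated in Diamond-Blackfan anaemia, had the largest CPM of the subunit in a wide region (chr7:24883843-24885243, 52.5 CPM per kb), with 68.2 and 49.9 CPM in line 112, 104 and 102 for 113, 54.4 and 57.9 for 119 and 79.4 and 72.8 for 73. Lines 113 and 73 did not overlap each other or the other lines there, and lines 112 and 119 did. Rps21 was the strongest region per kb of all, at 79.2 CPM per kb, and had 37.0 and 26.5, 68.6 and 58.5, 37.0 and 37.7, and 47.6 and 56.9 CPM in lines 112, 113, 119 and 73. Rps27a, which encodes a fusion of ubiquitin and a small subunit protein, had 22.6 and 23.1, 35.3 and 31.9, 21.2 and 21.3, and 40.2 and 36.7 CPM. Rps28 had a mean of 13.7 CPM, or 19.6 CPM per kb.

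Of the 5 paralogs, 1 had a region under the rule. The testis-expressed Rpl10l and Rpl39l and the paralog Rpl32l had no region within 1 kb, and the nearest regions lay 1558, 22352 and 5104 bp from their annotated starts. Rpl3l, the muscle paralog of Rpl3, had 2 regions, both at its finish and both within 1 kb of an end of Msrb1, and the stronger had 12.9 to 30.5 CPM. Rps27l lacked a region under the rule because its annotated starts lie inside the outer gene limits, and the region at its start had 14.5 to 39.2 CPM with a peak call in all 8 libraries. Rps2, a standard small subunit gene, lacked one for the same reason and had 14.9 to 38.9 CPM at its start. For Rpl17, of the large subunit, the nearest region lay 1316 bp away. The gene table used here has no entry named Rps4l. Of processed copies, 10 of 257 annotated pseudogene copies of ribosomal protein genes overlapped a region, with a median of 3.18 CPM. No margin of 1 kb was allowed there, unlike for the members. Reads from a gene and a near-identical copy could be split by the alignment, which bears on exons and less on the promoters at which most regions lie.

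The rule takes both ends of a gene, so the regions were placed relative to the annotated starts. Of the 95 regions, 53 lay within 1 kb of a start, 15 at the finish only, 2 at an outer limit away from the annotated start and 25 at genes without a promoter entry. Regions at starts had a median of 24.9 CPM per kb and 45 of 53 had a peak call in all 8 libraries, against 13.1 CPM per kb and 2 of 15 at finishes. Both ends had a region in 11 genes, and the start was stronger per kb in 10 of them. The ratio of start to finish was 5.99 in Rpl5, 4.94 in Rps19 and 4.76 in Rpl35, and 1.11 in Rps18. The exception was Rpl4, with a ratio of 0.824, whose finish is shared with Snapc5. In all, 27 of the 95 regions lay within 1 kb of an end of another protein-coding gene.

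The share of all counts that fell in the 95 regions differed between lines more than between replicates. It was 0.196% and 0.193% in line 112, 0.239% and 0.242% for 113, 0.157% and 0.166% for 119 and 0.245% and 0.233% for 73. The exact 95% binomial intervals (Clopper-Pearson) of its 2 libraries spanned 0.188% to 0.201% in line 112, 0.235% to 0.247% for 113, 0.154% to 0.169% for 119 and 0.228% to 0.250% for 73. They cover counting error only, since counts may include PCR duplicates. Lines 113 and 73 did not overlap lines 112 and 119, and each genotype held a line of each kind. The share at all gene ends also put lines 113 and 73 above lines 112 and 119, with line means of 32.5% in line 112, 37.8% for 113, 27.3% for 119 and 38.1% for 73. Knockout minus wild type was 0.0175 percentage points for the ribosomal share (0.218% ± 0.0323 against 0.200% ± 0.0550, SD over lines, n = 2 lines each), with p = 0.667 in a two-sided exact permutation test of the lines. This design cannot give a p below 0.333.

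Signal over background was the count per kb in ribosomal regions divided by that in the 18069 regions of the table without a peak call in any library. It was 5.46 and 4.05 in line 112, 8.23 and 8.45 for 113, 9.56 and 9.53 for 119 and 11.6 and 11.4 for 73. All 4 knockout libraries were below all 4 wild-type libraries. The knockout lines averaged 6.55 ± 2.54 and the wild-type lines 10.5 ± 1.39 (SD, n = 2 lines each), a ratio of geometric means of 0.597 with an exact permutation p of 0.333, the smallest possible. The order depended on the background chosen. Against the 25% of regions with the lowest mean CPM the ratio turned to 1.03 (exact permutation p = 0.667), whereas against regions without a peak call at least 50 kb from a gene end it was 0.557. The regions without a peak call held 5.30% of counts in line 112, 3.65% for 113, 2.14% for 119 and 2.63% for 73 on average. Peak calls overlapped 24.5% and 12.6% of all regions in line 112, 33.4% and 33.5% for 113, 61.1% and 54.8% for 119 and 36.1% and 35.7% for 73. A call in any library took a region out of this background, so the lines did not weigh equally in its choice. The part of this in the order of the lines was not tested. For all gene ends the signal over background was 4.49, 7.42, 9.15 and 10.4 in the line means, and the ribosomal regions exceeded them 1.02-fold to 1.13-fold per kb in the 8 libraries. Peak calls at the ribosomal regions numbered from 65 in line 112 replicate 2, the library with the fewest counts, to 86 in line 119 replicate 1, the library with the most.

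**Figure D1:**
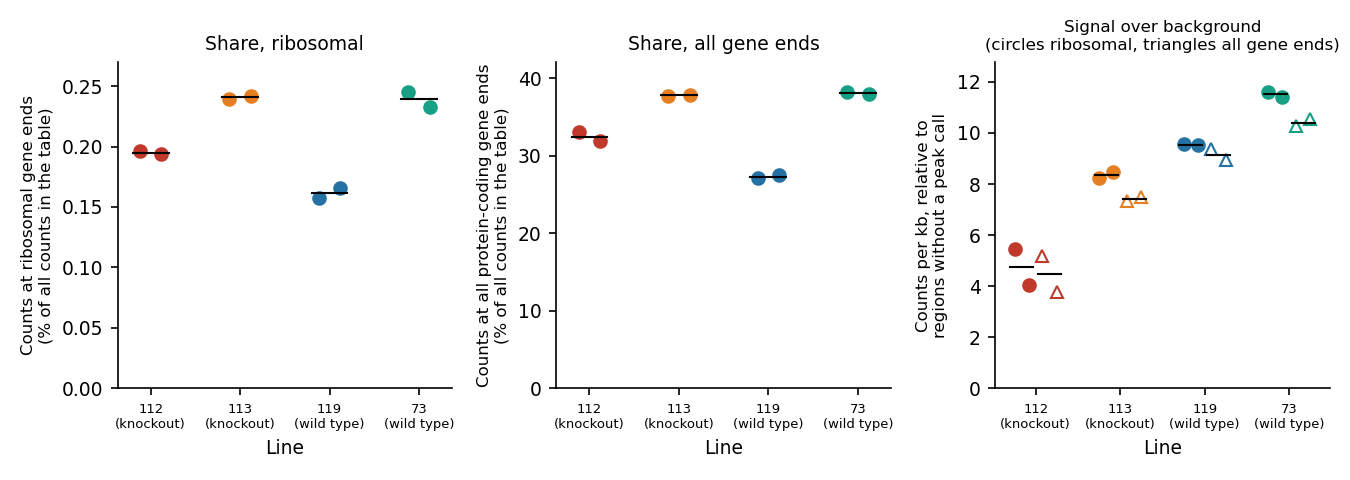
Share of counts at ribosomal protein gene ends and at all protein-coding gene ends (left and middle, percent of all counts in the table) and counts per kb relative to regions without a peak call (right, circles for ribosomal and triangles for all gene ends), by line, with 1 point per library and a bar at the line mean. The shares of lines 113 and 73 lie above those of lines 112 and 119, while the signal over background runs from 4.05 in line 112 to 11.6 in line 73.

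A library size taken from the ribosomal regions was set against TMM. On the log2 scale, with each set of factors centred on 0 over the 8 libraries, the ribosomal size exceeded the TMM size by 0.39 and 0.32 in line 113 and by 0.40 and 0.29 in line 73. Line 112 had -0.19 and -0.37 and line 119 had -0.46 and -0.38. The spread between replicates of a line was 0.0460 to 0.130 (SD), below the range of 0.86 over all libraries. The median of ratios over the 95 regions gave a range of 0.84. Sizes from all counts of the table lay between, from -0.28 to 0.17. Under the ribosomal reference, the median log2 fold change over all 140329 tested regions moved by -0.77 for line 113 against line 119, by 0.76 for line 119 against line 73, by 0.62 for line 112 against line 73 and by 0.62 for line 112 against line 113. It moved by -0.15 for line 112 against line 119 and by -0.01 for line 113 against line 73.

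**Figure D2:**
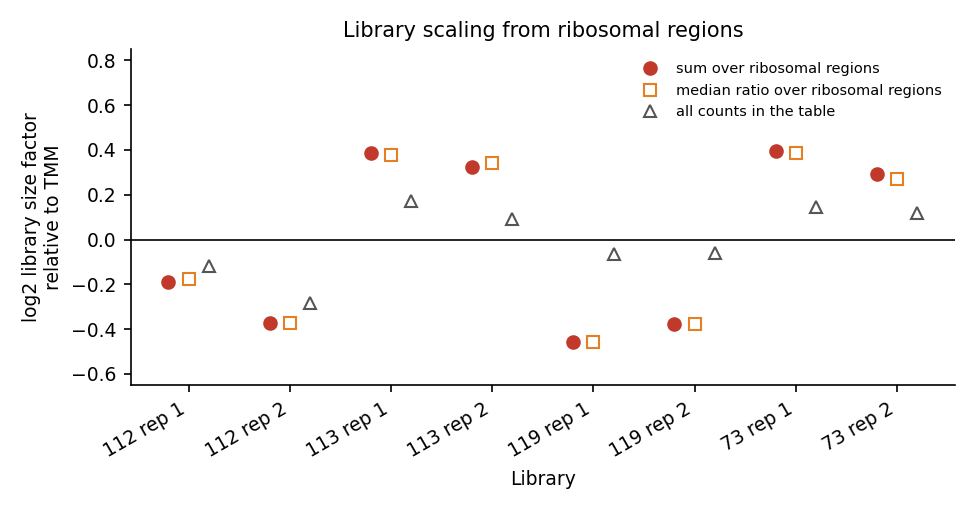
Library size factors on the log2 scale relative to TMM, for each of the 8 libraries, from the sum over the 95 ribosomal regions (filled circles), the median of ratios over these regions (squares) and all counts of the table (triangles). Both ribosomal estimates lie above TMM in lines 113 and 73 and below it in lines 112 and 119.

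The lines were compared in pairs to see how the members varied. Each pair was a contrast in edgeR's quasi-likelihood fit of all 8 libraries with Benjamini-Hochberg adjustment over 140329 regions at 0.05, and the pairs share lines, so their results are not independent. In line 113 against line 119, 81 of 95 regions were called, 76 higher and 5 lower, with a median log2 fold change of 0.80. That is 85.3% of the members, where 58.9% of all tested regions and 69.5% of the 18188 tested gene ends were called, the latter with a median of 0.69. In line 119 against line 73, 72 were called, 3 higher and 69 lower, with a median of -0.72 (gene ends -0.69). These were 75.8% of the members, against 56.9% of all regions and 70.2% of gene ends. In line 112 against line 73, 56 were called, all lower in line 112, with a median of -0.58 (gene ends -0.50). They made up 58.9% of the members, against 49.9% of all regions and 57.1% of gene ends. In line 112 against line 113, 48 were called, all lower in line 112, with a median of -0.60 (gene ends -0.44). Here 50.5% of the members were called, against 23.8% of all regions and 43.2% of gene ends. With only regions of at least 50 counts on average in the fit, 78 members were kept and TMM was taken from the kept regions. These 4 counts were then 36, 30, 17 and 6 and the medians 0.30, -0.27, -0.10 and -0.09. Of all 24137 regions in that fit 14310, 15172, 13849 and 7469 were called, a larger share than of the members in each pair. The count fell to 36 for line 112 against line 73 without line 73 replicate 1, and to 27 for line 112 against line 113 without line 113 replicate 1.

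The remaining pairs, 1 knockout line against 1 wild-type line in each, had a smaller share of called members than of called regions in the table. In line 112 against line 119, 22 of 95 regions were called (16 higher, 6 lower, median 0.17, gene ends 0.17), against 45.8% of all regions, and 9 without line 119 replicate 1. In line 113 against line 73, 20 were called (8 higher, 12 lower, median 0.04, gene ends -0.01), against 52.2%. That count was 13 without either library of line 113 or without line 73 replicate 2, and 34 without either library of line 112 (17 higher and 17 lower without replicate 1, 19 higher and 15 lower without replicate 2). Over the 6 pairs, 0 of the 95 regions were called in all and 4 in none, against 1.4% and 11.9% of all tested regions. By mean CPM, line 119 was the lowest line in 65 of 95 regions and line 112 in 24, while line 113 was the highest in 48 and line 73 in 44. Among all gene ends line 119 was lowest in 50.1% and line 112 in 22.8%.

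Other scalings kept the direction of the members in the 4 pairs with most calls. With all counts of the table as library size, 64 were higher and 5 lower in line 113 against line 119, 3 higher and 60 lower in line 119 against line 73, and 27 and 22 lower with 0 higher in line 112 against lines 73 and 113. With DESeq2's size factors these were 72 and 5, 3 and 60, and 50 and 46 lower with 0 higher. Under the ribosomal reference, which sets the sum over the members equal in every library, 27, 26, 23, 25, 5 and 24 of the 95 were called in the pairs 112 against 119, 112 against 73, 113 against 119, 113 against 73, 112 against 113 and 119 against 73. That scaling fixes the balance of the members, with medians of 0.02 to 0.04 in the 6 pairs, so these counts do not bear on their direction. What it moved is the rest of the table. The share of higher calls among all called regions went from 51.2% to 20.6% in line 113 against line 119, from 48.3% to 79.7% in line 119 against line 73, from 47.7% to 74.1% in line 112 against line 73 and from 34.6% to 87.4% in line 112 against line 113. With all counts of the table as library size those shares were 43.7%, 55.7%, 61.6% and 64.5%.

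**Figure D3:**
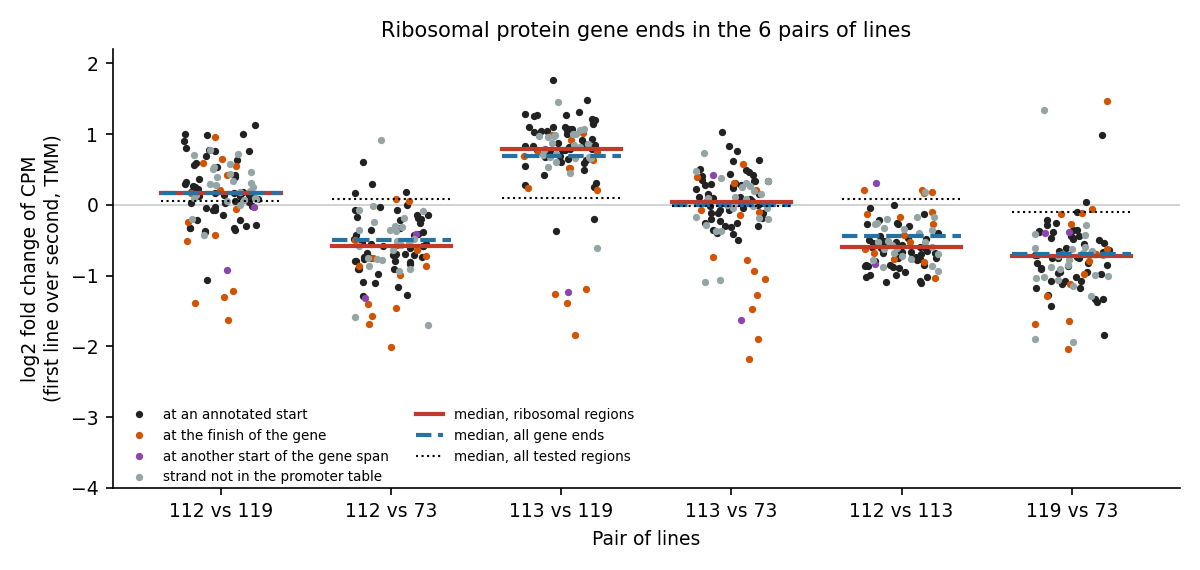
Log2 fold changes (TMM) of the 95 ribosomal regions in the 6 pairs of lines, first line over second, with 1 point per region coloured by its place at the gene. Solid, dashed and dotted bars give the medians of ribosomal regions, all gene ends and all tested regions. The ribosomal and gene-end medians are 0.80 and 0.69 in line 113 against line 119 and 0.04 and -0.01 in line 113 against line 73, and points at finishes reach the lowest values in 5 of the 6 pairs.

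The largest called changes per pair came from both ends. Higher in line 112 than in line 119 was the start of Rps10, with 14.2 and 19.7 against 7.37 and 7.94 CPM (log2 fold change 1.13, SE 0.27, edgeR adjusted p = 0.000389). Rpl37a showed the largest rise in line 113 over line 119, with 27.6 and 22.5 against 6.46 and 8.44 CPM (1.76, SE 0.24, edgeR adjusted p = 8.05e-09). In both cases the libraries of the 2 lines did not overlap. A weak region 715 bp before the start of Rpl27a was highest in line 113 over line 73, with 9.51 and 12.8 against 5.89 and 5.00 CPM (1.03, SE 0.32, edgeR adjusted p = 0.00603). Rps13 fell most in line 112 against line 113, with 14.9 and 13.5 against 30.8 and 30.7 CPM (-1.11, SE 0.22, edgeR adjusted p = 0.00012). Between the wild-type lines the finish of Rpl35, shared with Wdr38, was higher in line 119, with 6.85 and 7.26 against 2.82 and 2.22 CPM (1.47, SE 0.38, edgeR adjusted p = 0.000821). The finish of Rpl10a, shared with Tead3, was lower in line 119, with 5.17 and 5.74 against 25.1 and 19.7 CPM (-2.04, SE 0.27, edgeR adjusted p = 4.8e-09).

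The genotypes were then compared with the line as the unit, 2 against 2. None of the 95 regions passed (edgeR quasi-likelihood, 0 of 140329 regions of the table called, 0%), 2 members had an unadjusted p under 0.05, and DESeq2's Wald test called 0 of the 95 and 6986 regions of the table. Knockout over wild type, the members had a median log2 fold change of 0.08, with 59 above and 36 below 0, beside 0.06 at all gene ends and -0.09 over all tested regions. Among the common reference genes the log2 fold changes were -0.13 (SE 0.66) in Rplp0, 0.38 (SE 0.59) at the start of Rpl13a, 0.27 (SE 0.67) in Rpl32, 0.19 (SE 0.65) at the start of Rps18 and -0.08 (SE 0.64) in Rps27a. Away from an annotated start, the only member region of Rpl19 had -1.30 (SE 0.79) and the finish of Rps18 had -1.77 (SE 0.73). The members with the smallest p on the higher side were the start of Rpl35a (0.68, SE 0.70, edgeR adjusted p = 0.683), the weak region before Rpl27a (0.78, SE 0.84, edgeR adjusted p = 0.703) and Rps16 (0.62, SE 0.70, edgeR adjusted p = 0.718).

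Lower in both knockout lines were 4 regions, none at an annotated start. Each was called lower in every one of the 4 knockout to wild-type line pairs, as were 7.41% of all tested regions, and 0 members passed in the other direction against 7.64%. The 4 of 95 members are thus a smaller share than the 15.1% of all regions that passed in either direction. In the same 4 regions the libraries of the genotypes did not overlap, which held for 26.7% of all tested regions. Of the 4, 3 were at the finish of a gene and 1 at an outer limit. With only regions of at least 50 counts on average in the fit, these 4 passed again. In that fit 1 member, the start of Rpl35a, was called higher in all 4 pairs. The share of all regions that passed in that fit was not counted.

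Beyond the finish of Rps18 (chr17:33950957-33951784, 214 bp from the gene and within 1 kb of an end of B3galt4) CPM was 6.75 and 10.5 in line 112, 7.93 and 7.02 for 113, 19.8 and 19.6 for 119 and 38.7 and 29.2 for 73. The knockout lines averaged 8.04 ± 0.803 and the wild-type lines 26.8 ± 10.1 (SD, n = 2 lines each), a log2 fold change of -1.77 (SE 0.73, edgeR adjusted p = 0.240). The start of the same gene had 21.9 and 18.5, 28.5 and 35.8, 17.3 and 20.1, and 28.9 and 25.6 CPM in the 4 lines, with the genotypes overlapping. Whether start and finish differ in their response to the genotype was not tested.

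The region 752 bp past the finish of Rpl38 (chr11:114673085-114673661) had 6.05 and 4.00 CPM in line 112, 4.76 and 4.11 for 113, 15.4 and 16.5 for 119 and 18.2 and 15.0 for 73. Its genotype means were 4.73 ± 0.418 and 16.3 ± 0.443 CPM (-1.77, SE 0.82, edgeR adjusted p = 0.282). Within each genotype the 2 lines were close together at this region. Inside Rps15a, 93 bp from its finish, the region (chr7:118104467-118105197) had 7.91 and 5.54, 7.48 and 7.26, 17.7 and 16.0, and 20.2 and 20.6 CPM in the 4 lines (-1.40, SE 0.77, edgeR adjusted p = 0.371). At Rpl19 the region at the outer limit of the gene, within 1 kb of an end of Cacnb1 (chr11:98022255-98023022), had 4.89 and 11.4, 7.70 and 4.84, 14.7 and 15.0, and 21.5 and 17.5 CPM (-1.30, SE 0.79, edgeR adjusted p = 0.414). The region at the annotated start of Rpl19 had 18.4 and 17.9, 25.8 and 20.3, 13.2 and 14.9, and 27.9 and 21.9 CPM, with the genotypes overlapping. At the starts of Rpl38 and Rps15a the knockout libraries ranged from 21.2 to 35.8 and from 16.5 to 34.4 CPM and the wild-type libraries from 23.5 to 38.6 and from 19.6 to 30.0 CPM, so the genotypes overlapped there too. The lowest of these 4 regions had 13 counts in 1 library. Leaving out either library of line 119 or replicate 1 of line 112 left 3 regions, without that of Rpl19, and leaving out each of the other libraries left all 4. All 4 regions also passed under the ribosomal reference.

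**Figure D4:**
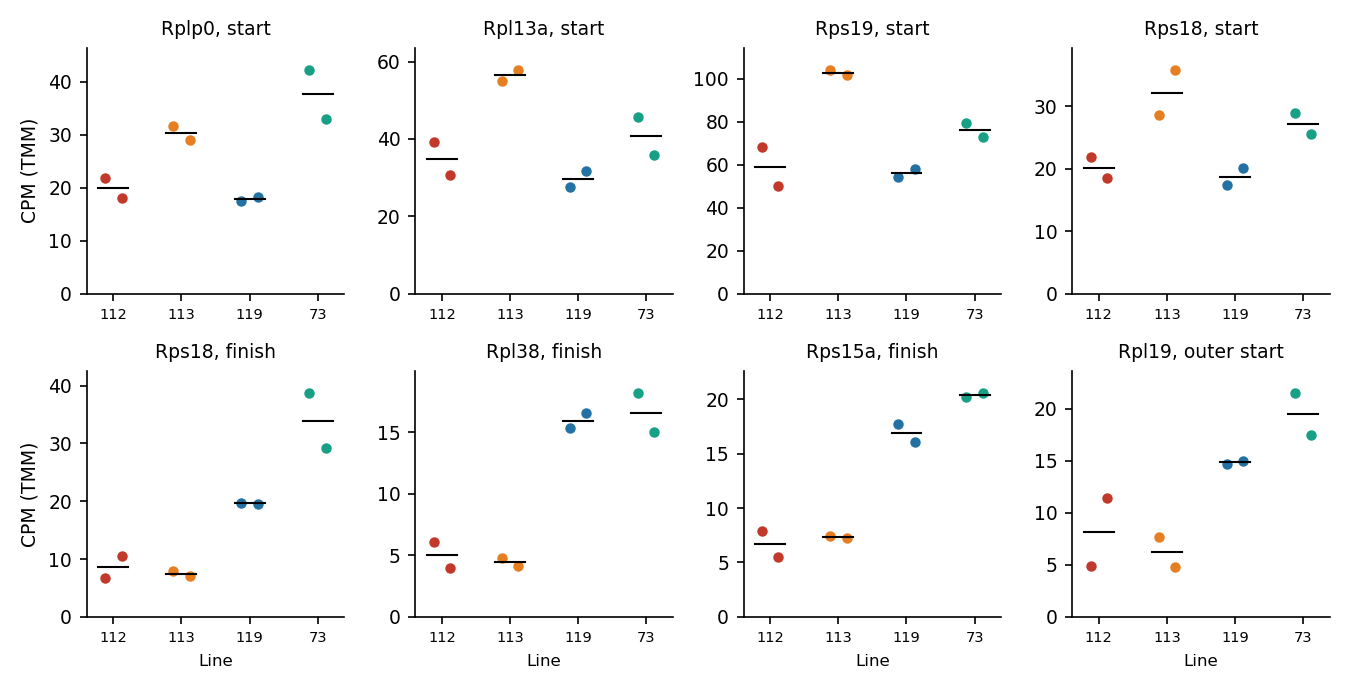
CPM (TMM) by line at 8 ribosomal regions, with 1 point per library and a bar at the line mean. The upper row shows regions at starts, where lines 113 and 73 are the higher ones by line mean. The lower row shows the 4 regions that were lower in both knockout lines, such as the finish of Rpl38 at 4.00 to 6.05 CPM in knockout and 15.0 to 18.2 CPM in wild-type libraries.

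As a reference, the members were described by their spread. The median SD of log2 CPM between replicates of a line was 0.193 over the 95 regions, 0.224 at all gene ends and 0.351 over all tested regions. Between line means it was 0.453, 0.510 and 0.782. In bins of level the replicate SD of the members was 0.162 against 0.170 at gene ends between 20 and 40 CPM, 0.221 against 0.217 between 10 and 20 CPM and 0.168 against 0.156 between 40 and 80 CPM, so it was not lower than at gene ends in each bin. Between lines, in the 40 members between 20 and 40 CPM the SD was 0.448, against 0.469 at gene ends and 0.492 over all tested regions. In the 31 members between 10 and 20 CPM it was 0.473, against 0.515 and 0.866, and in the 10 members between 5 and 10 CPM 0.447, against 0.625 and 0.994. Regions at starts had a median of 0.455 and regions at finishes 0.564. Replicates of a line differed at the members by a chi-square per degree of freedom of 1.72 in line 112, 1.17 for 113, 0.989 for 119 and 1.58 for 73, where 1 is counting noise. For line 119 this is close to 1, and its replicates gave 0.989 at all gene ends and 1.07 over all regions. Over all regions the replicates of lines 112, 113 and 73 gave 2.19, 1.61 and 1.44. The libraries of line 119 were kept as 2 replicates.

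**Figure D5:**
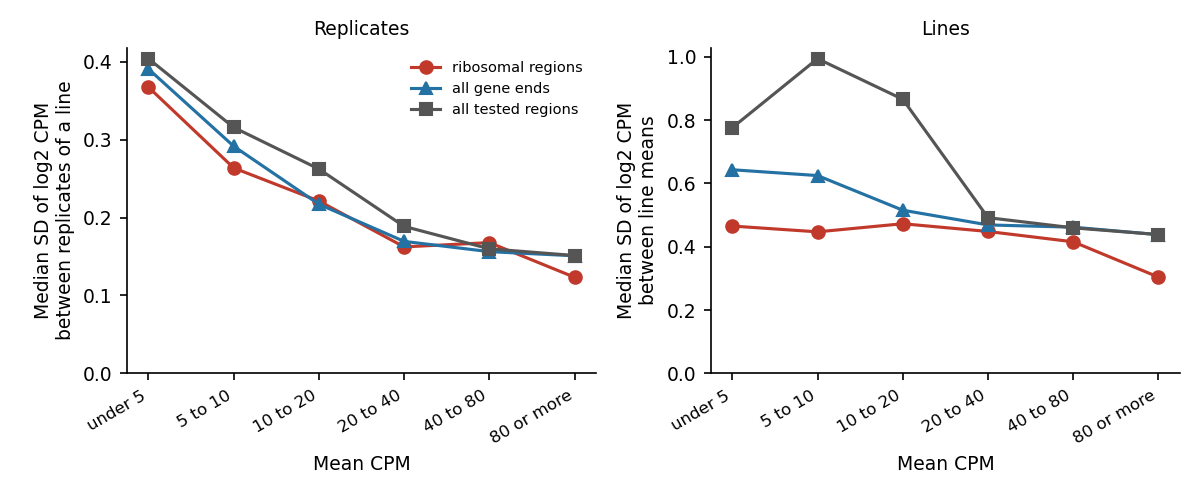
Median SD of log2 CPM between the 2 replicates of a line (left) and between the 4 line means (right) in bins of mean CPM, for ribosomal regions, all gene ends and all tested regions. Ribosomal regions number 6, 10, 31, 40, 7 and 1 in the bins from left to right. Between lines the members lie at 0.448 and gene ends at 0.469 in the bin of 20 to 40 CPM, and at 0.447 and 0.625 in the bin of 5 to 10 CPM.

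Lists of other genes of the translation machinery were set beside the members. Of the 18188 tested gene ends 69.5% were called in line 113 against line 119, 10451 higher and 2190 lower (median log2 fold change 0.69). The mitochondrial ribosome had 74 of 78 genes with a region (106 regions, 104 tested). Of these regions 79 were higher and 5 lower in that pair, with a median of 0.83. Among 26 regions of 15 translation factor genes, such as Eef2, the translocation factor, 19 were higher and 2 lower (median 0.80). Among 23 regions of ribosome assembly genes, such as Ncl, 18 were higher and 1 lower (0.80), and among 26 regions of common housekeeping genes, 19 were higher and 1 lower (0.73). The 12 regions of cytosolic ribosomal genes outside the naming rule, such as Rpsa and Fau, had 7 higher and 1 lower (0.63). In line 119 against line 73 the same lists had 83, 21, 18, 19 and 10 regions lower and 3, 1, 0, 0 and 0 higher. Of the gene ends 70.2% were called in that pair, 10838 lower and 1934 higher. In the comparison of genotypes 0 regions of these lists passed. Housekeeping genes were not alike in level: Gapdh had line means of 79.4, 73.1, 33.0 and 78.9 CPM in lines 112, 113, 119 and 73, and Actb 7.99, 11.0, 7.30 and 29.2 CPM.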

How the data were processed

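Accessibility was measured by ATAC-seq in 8 libraries of 4 mouse melanoma lines. The authors deposited raw counts per region and a peak list per library, in which a score, a fold over background (ratio), the −log10 of p and of q and the summit belong to each peak. Bowtie2 2.2.4, Picard 1.118, MACS2 2.1.1.20160309 and the builds mm10 and GRCm38 are named in the submitters' processing notes, without role or order. Whether reads, fragments or cuts were counted, and any shift for the transposase, is not given in the sources used here, so counts may include duplicates. The table holds 0 columns of other samples.

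Genes came from the RefSeq table of GRCm38.p6, which has no strand, and promoters and strand from its promoter table. Coordinates are counted from 1. The members and lists were chosen with earlier results of these data known. Counts were filtered with filterByExpr of edgeR 4.0.16 (minimum count 10) on sums per line, which kept 140329 regions, scaled by TMM and tested with glmQLFit and glmQLFTest (R 4.3.3, two-sided, adjusted p threshold 0.05). The SE was the log2 fold change divided by the square root of F. Log2 CPM used a prior count of 2. Peak overlap needed 1 bp. The fits were also run on simulated data, whose outcome is not reported here and is not used as support. Alternatives included DESeq2 1.42.0, other scalings, filters and distances, libraries as units and each library left out. Named genes were common reference genes, the stalk, paralogs, the 3 highest and 3 lowest genes by CPM, the 3 smallest genotype p-values in each direction, regions with 1 sign in all 4 pairs and the largest called change per pair and direction. Other genes in the text were chosen after their values were seen. Some items that the rule names are not reported here.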

Additional observations from a re-analysis of the deposited data

How the results depend on the processing

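With lines as units the genotype count was 0 in each setting run, DESeq2's Wald test (0 of 95) and each library left out (0 to 0) included. With 2 lines a genotype that differ among themselves, a count of 0 is no sign of stability. With libraries as units, which treats replicates of a line as independent, 4 of 95 members were lower (Rpl38, Rps18, Rps15a and Rpl19). In that setting 31815 of 140329 regions of the table were called, a larger share than of the members. With a replicate block added after seeing the data, 3 members were lower, beside 24224 regions of the table called. Replicate numbers did not pair the libraries (correlations of replicate differences between lines from -0.037 to 0.004), and a replicate block in the fit of pairs gave 22, 54, 81, 20, 46 and 72 called members in the pairs 112 against 119, 112 against 73, 113 against 119, 113 against 73, 112 against 113 and 119 against 73, against 22, 56, 81, 20, 48 and 72 without it. In the same order the ribosomal reference gave 27, 26, 23, 25, 5 and 24, total counts 35, 27, 69, 26, 22 and 63. At least 50 counts on average, which left 78 members, gave 17 for 112 against 73, 36 for 113 against 119, 6 for 112 against 113 and 30 for 119 against 73. Of the 24137 regions in that fit 13849, 14310, 7469 and 15172 were called in these pairs. DESeq2's Wald test gave 12 for 112 against 119 and 30 for 112 against 113. The strongest region at a promoter-table start, 52 regions chosen after seeing the data, gave 12, 31, 49, 10 and 44 for 112 against 119, 112 against 73, 113 against 119, 113 against 73 and 119 against 73. The ribosomal reference balances the members by construction, so its counts and their majority do not bear on direction. Under total counts and DESeq2's size factors no majority turned. In the pair 113 against 73 the majority of calls turned with regions with a peak call (21, of which 11 higher), the strongest region per gene (10) or at a promoter-table start, and without shared regions (13). It also turned without line 112 replicate 2 (34, of which 19 higher) and was tied without line 112 replicate 1 (17 each way) and without line 73 replicate 1 (7 each way), while regions within 2 kb gave 34. Leaving out each library gave 9 to 26, 36 to 58, 63 to 84, 13 to 34, 27 to 55 and 52 to 78 in the order of pairs, where a lone library is assumed to vary like the others. The lowest value of 9 came without line 119 replicate 1, that of 36 without line 73 replicate 1 and that of 27 without line 113 replicate 1. The values 13 came without either library of line 113 or without line 73 replicate 2, and the values 34 without either library of line 112. The difference in share ranged from 0.0144 to 0.0206 percentage points and the ratio of signal over background from 0.554 to 0.644 with each library left out. Against the 25% of regions with the lowest mean CPM that ratio was 1.03. Apart from the altered numbers of regions and libraries, the cause was not tested. Depth limits the weakest regions, with as few as 4 counts in a library.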
